A study of Mus musculus with 2 samples.

Results

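The semaphorin, plexin, ephrin and Eph genes were followed through the cell classes of mouse cerebral cortex. All gene symbols that begin with Sema and a number, Plxna to Plxnd, Epha or Ephb and a number, or Efna or Efnb and a number were taken. They came to 54 of 30905 genes, and all 54 had at least 20 unique molecular identifiers (UMIs, the tags that count single RNA molecules) in the matrix, as did 18945 genes in all. The gene nearest the minimum was Efna4, with 12 UMIs in library 1 and 15 in library 2. The set holds 7 secreted semaphorins, 13 other semaphorins, 9 plexins, 5 ephrin-A ligands, 9 EphA receptors, 3 ephrin-B ligands, 5 EphB receptors and 3 transcripts antisense to Plxna4. Nuclei were isolated from frozen cortex of untreated wild-type C57BL/6 mice on a normal diet and sequenced on the 10x Chromium platform. There was 1 sample from 18-month-old animals and 1 from 2-month-old animals, and 3 animals were pooled for each. For the series as a whole, ages of 18 to 22 months and of 2 to 3 months are given. Both samples share 1 matrix, and no label ties either of its barcode suffixes to an age. The suffixes are therefore called library 1 and library 2, the matrix counts as 1 sample, and no difference between ages is reported.

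Semaphorins are guidance cues, some secreted and some held in the membrane, and plexins are their receptors. Most secreted class 3 semaphorins need a neuropilin beside the plexin, whereas Sema3e can bind Plxnd1 directly. Ephrins are ligands bound to the membrane, by a lipid anchor in the A group and by a transmembrane segment in the B group, and Eph proteins are the receptor tyrosine kinases that read them. Both systems steer axons in development, are kept in adult neurons and synapses, and act in vessels, where ephrin-B2 on arteries and EphB4 on veins are a classical pair.

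Library 1 held 8914 barcodes with a median of 5992 UMIs and library 2 held 8587 with a median of 6450, and 19 barcode sequences occurred in both. After filtering, 8286 and 7954 nuclei remained, and 10 classes had at least 50 nuclei in each library. A class name means that the nuclei resemble that class by its markers. Libraries labelled as cortex also held striatal projection neurons (391 and 234 nuclei) and, among excitatory neurons, dentate granule (350 and 211) and CA1 (250 and 215) nuclei of the hippocampus. A level is the UMIs of a gene relative to all UMIs of the class, in CPM, and intervals are exact 95% Poisson intervals that cover counting error only. Values given in pairs are those of library 1 and library 2. The level of a nuclear transcript can also depend on gene length, which was not tested here. Levels are therefore compared between classes. They are ranked between genes only to choose which members of a family are named.

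Markers of excitatory neurons were found in every class, and the source of these counts was not tested. The 7 excitatory markers stood in endothelial nuclei at 28.8 to 118% of their excitatory level in library 1 and at 33.2 to 121% in library 2. In microglia they stood at 39.6 to 170% and 35.0 to 298%, and in pericytes and smooth muscle at 30.4 to 285% and 26.1 to 279%. Neurod6 set the top of the range in both libraries of microglia and of pericytes and smooth muscle. In endothelium Tbr1 set it in library 1 and Neurod6 in library 2. The ratio of a level outside neurons to the gene's highest neuron class was therefore taken. It had to exceed the highest of these marker ratios in both libraries. Other levels were not told apart from background. By this measure, 9 of 32 members measured in endothelium stood above the range (42.1% of all genes there), 8 of 30 in fibroblasts (45.9%), 7 of 26 in oligodendrocyte precursors (34.7%), 6 of 39 in oligodendrocytes (15.5%), 4 of 36 in astrocytes (20%), 1 of 24 in microglia (10.6%) and 0 of 14 in pericytes and smooth muscle (9.85%). These were 22 members in all, and in 6 of the 7 classes their share was below that of all genes by more than 1 percentage point.

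Of the 54 members, 33 had their highest level in the same class in both libraries, which is 61.1%, beside 43.2% of all genes. Grouped more widely, so that the class may differ between the libraries within a group, 12 members (22.2%) were highest in a neuron class in both libraries, beside 10.7% of all genes. A glial class was highest in both for 14 (25.9%), beside 25.9%, and a vascular class, meaning endothelium, mural cells or fibroblasts, for 11 (20.4%), beside 26.9%. By single class the members numbered 6 in excitatory neurons (2.42% of all genes), 4 in inhibitory neurons (3.11%), 2 in striatal projection neurons (3.14%), 2 in oligodendrocytes (3.77%) and 4 in their precursors (2.67%). There were 3 in astrocytes (4.13%), 4 in microglia (7.38%), 7 in endothelium (5.93%), 0 in pericytes and smooth muscle (4.42%) and 1 in fibroblasts (6.17%). The counts by group and by class do not apply the range of the neuron markers. That range was applied only to genes with at least 20 UMIs in a class over both libraries. Of the 4 in microglia, Efna3, Epha2, Plxna4os1 and Plxnb2, Plxnb2 was above the range in both libraries and Efna3 was not. Epha2 and Plxna4os1 had too few UMIs in microglia, so the range was not applied to them. Of the 9 EphA receptors, 6 were highest in a neuron class in both libraries. A vascular class was highest for 4 of the 7 secreted semaphorins and a glial class for 6 of the 13 other semaphorins. Among these, the class of Sema3f and of Sema4d differed between the libraries. Sema3f was highest in pericytes and smooth muscle of library 1, at 18.2 CPM, and in fibroblasts of library 2, at 6.47 CPM.

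**Figure D1:**
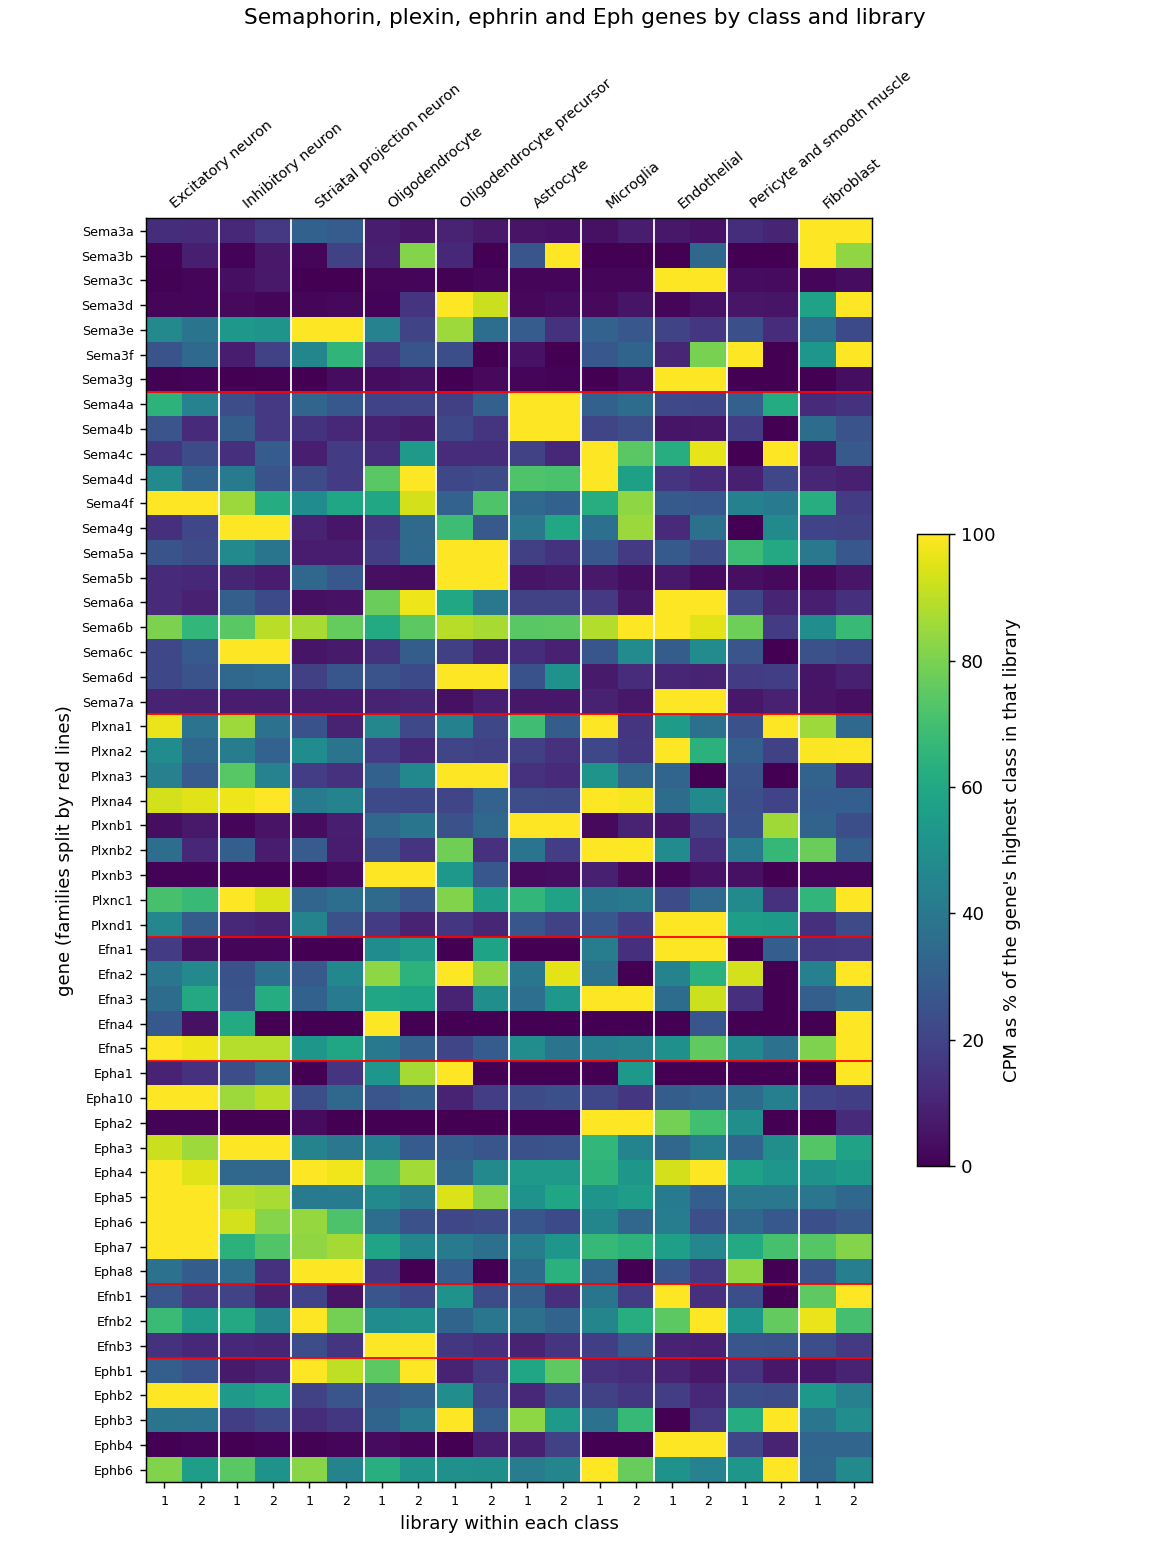
Level of the 51 coding members (rows, split by family) in 10 classes (columns, library 1 left of library 2), as a percentage of the gene's highest class in that library. Yellow cells mark the highest class, which is endothelium for Sema3c, Sema3g, Sema7a and Ephb4 and oligodendrocytes for Plxnb3 and Efnb3 in both libraries.

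Among secreted semaphorins, Sema3c and Sema3g marked endothelium. Sema3c measured 1063 CPM in library 1 (975 to 1156) and 828 CPM in library 2 (771 to 887) in endothelial nuclei, from 546 and 801 UMIs. The next class, inhibitory neurons, had 44.7 and 55.5 CPM, so endothelium stood 23.8-fold and 14.9-fold above it. After thinning every nucleus to 1500 UMIs, 58.2% and 49.8% of endothelial nuclei held a Sema3c UMI (70.6% and 60.6% before thinning). The thinned share was 1.73% and 2.99% in microglia, whose median depth was 1703 and 1978 UMIs, against 2430 and 2617.5 in endothelium. Within endothelium the signal lay in capillary and venous nuclei, with 1184 and 1041 CPM. Arterial nuclei, of which there were 18 and 63, had 0 of 52643 UMIs in library 1, which allows up to 70.1 CPM, and 3 UMIs in library 2, or 14.9 CPM.

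Sema3g showed the other order between endothelial subsets. It measured 52.6 CPM in library 1 (34.6 to 76.5) and 73.4 CPM in library 2 (57.3 to 92.5) in endothelium and at most 2.42 CPM in any neuron class. Arterial nuclei had 94.98 CPM (30.8 to 222) and 258 CPM (193 to 338), from 5 and 52 UMIs, and capillary and venous nuclei 47.7 CPM (29.9 to 72.2) and 24.8 CPM (14.9 to 38.7). The intervals of the subsets overlap in library 1 and are apart in library 2. Endothelial levels depended on the mitochondrial limit. With at most 1% in place of 5% mitochondrial UMIs, 19 and 25 endothelial nuclei were left, with Sema3c at 698 and 488 CPM and Sema3g at 15.9 and 119 CPM, a setting added after the data were seen.

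Sema3a, known for repelling axons, measured 458 CPM (402 to 519) and 581 CPM (529 to 638) in fibroblasts, its highest class, against 141 and 169.5 CPM in striatal projection neurons. Fibroblast nuclei also held astrocyte markers, at a summed 4986 and 4361 CPM over 7 markers, against 13718 and 14387 CPM in astrocytes. The 8 fibroblast markers summed to 2977 and 4533 CPM in fibroblasts. In astrocytes Sema3a had 23.9 and 29.4 CPM and Sema3d 8.53 and 10.8 CPM. Sema3d measured 395 CPM (339 to 456) and 305 CPM (261 to 354) in oligodendrocyte precursors, against 227 CPM (188 to 272) and 331 CPM (292 to 375) in fibroblasts. No neuron class had more than 9.53 CPM of it. The intervals of these classes are apart in library 1 and overlap in library 2. Sema3e, the ligand of Plxnd1, was highest in striatal projection neurons, at 172 and 220.4 CPM, against 147 and 79.4 CPM in oligodendrocyte precursors, whose interval overlaps in library 1, and 81.4 and 84.8 CPM in excitatory neurons. The precursor level lies inside the range of the neuron markers.

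The 13 other semaphorins had several highest classes. In both libraries Sema5a, Sema5b and Sema6d were highest in oligodendrocyte precursors, Sema6a and Sema7a in endothelium, Sema4a and Sema4b in astrocytes, Sema4g and Sema6c in inhibitory neurons and Sema4f in excitatory neurons. In oligodendrocyte precursors Sema6d measured 1372 CPM (1267 to 1483) and 1753 CPM (1644 to 1867), against 459 and 612 CPM in inhibitory neurons. In astrocytes Sema6d had 348 and 890.3 CPM, and the intervals of the libraries are apart there, with both levels inside the range of the neuron markers. Sema5a was at 310.0 and 424 CPM in precursors, against 212 and 255 CPM in pericytes and smooth muscle, the next class. Sema5b was at 293 and 375 CPM in precursors, against 98.2 and 102 CPM in striatal projection neurons, the next class. Sema7a, which has a lipid anchor and binds Plxnc1, measured 374 CPM (323 to 430.5) and 257 CPM (226 to 291) in endothelium, 9.93-fold and 9.29-fold above the next class. Under the 1% mitochondrial limit Sema7a was at 238 and 119 CPM there. Sema6a was shared by classes. Endothelium had 343 CPM (294 to 397) and 574 CPM (528 to 624), against 264 CPM (241 to 289) and 559 CPM (517 to 603) in oligodendrocytes. The intervals overlap in library 2.

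Endothelial nuclei also held pericyte markers, at a summed 1886 and 1514 CPM over 7 markers. Pericytes and smooth muscle had 4444 and 4761 CPM of these markers. The 7 members that were highest in endothelium in both libraries were Sema3c, Sema3g, Sema6a, Sema7a, Ephb4, Plxnd1 and Efna1. The bases before the RefSeq start (GRCm38.p6) are shown for Sema3g, Sema7a, Ephb4 and Plxnd1, the 4 members of this set in the table whose RefSeq and GENCODE starts lie at most 13 bases apart. They cover chr14:31217623-31217872, chr9:57939862-57940111 and chr5:137349859-137350108 on the plus strand and chr6:115995006-115995255 on the minus strand. Capitals mark GGAAG, the core that ETS factors bind, or CTTCC, the same motif on the other strand.
Sema3g: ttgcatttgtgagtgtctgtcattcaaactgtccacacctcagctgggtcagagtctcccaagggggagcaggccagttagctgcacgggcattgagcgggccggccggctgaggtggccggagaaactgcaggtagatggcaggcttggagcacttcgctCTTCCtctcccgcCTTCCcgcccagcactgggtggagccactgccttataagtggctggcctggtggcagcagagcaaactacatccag
Sema7a: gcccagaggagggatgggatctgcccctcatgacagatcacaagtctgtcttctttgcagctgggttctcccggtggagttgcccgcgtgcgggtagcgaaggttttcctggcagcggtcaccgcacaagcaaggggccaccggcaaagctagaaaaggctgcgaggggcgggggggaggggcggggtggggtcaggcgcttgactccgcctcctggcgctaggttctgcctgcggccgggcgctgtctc
Ephb4: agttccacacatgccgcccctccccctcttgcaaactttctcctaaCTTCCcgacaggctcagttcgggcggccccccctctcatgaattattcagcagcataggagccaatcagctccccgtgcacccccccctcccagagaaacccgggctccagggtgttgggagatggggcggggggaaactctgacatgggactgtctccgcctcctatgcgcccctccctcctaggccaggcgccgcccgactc
Plxnd1: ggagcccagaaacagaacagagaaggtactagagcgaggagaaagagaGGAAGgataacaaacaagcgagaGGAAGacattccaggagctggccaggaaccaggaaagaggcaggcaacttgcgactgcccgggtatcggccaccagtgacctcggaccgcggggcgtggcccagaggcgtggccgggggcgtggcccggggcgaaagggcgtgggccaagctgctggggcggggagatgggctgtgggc
The windows of Sema3g and Plxnd1 hold 2 matches each, that of Ephb4 holds 1 and that of Sema7a holds 0. The motif is common: 64.1% of all 32851 promoter windows of the same length held it, as did 34 of the 45 members that the table lists and 4 of the 6 of these that were highest in endothelium.

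**Figure D2:**
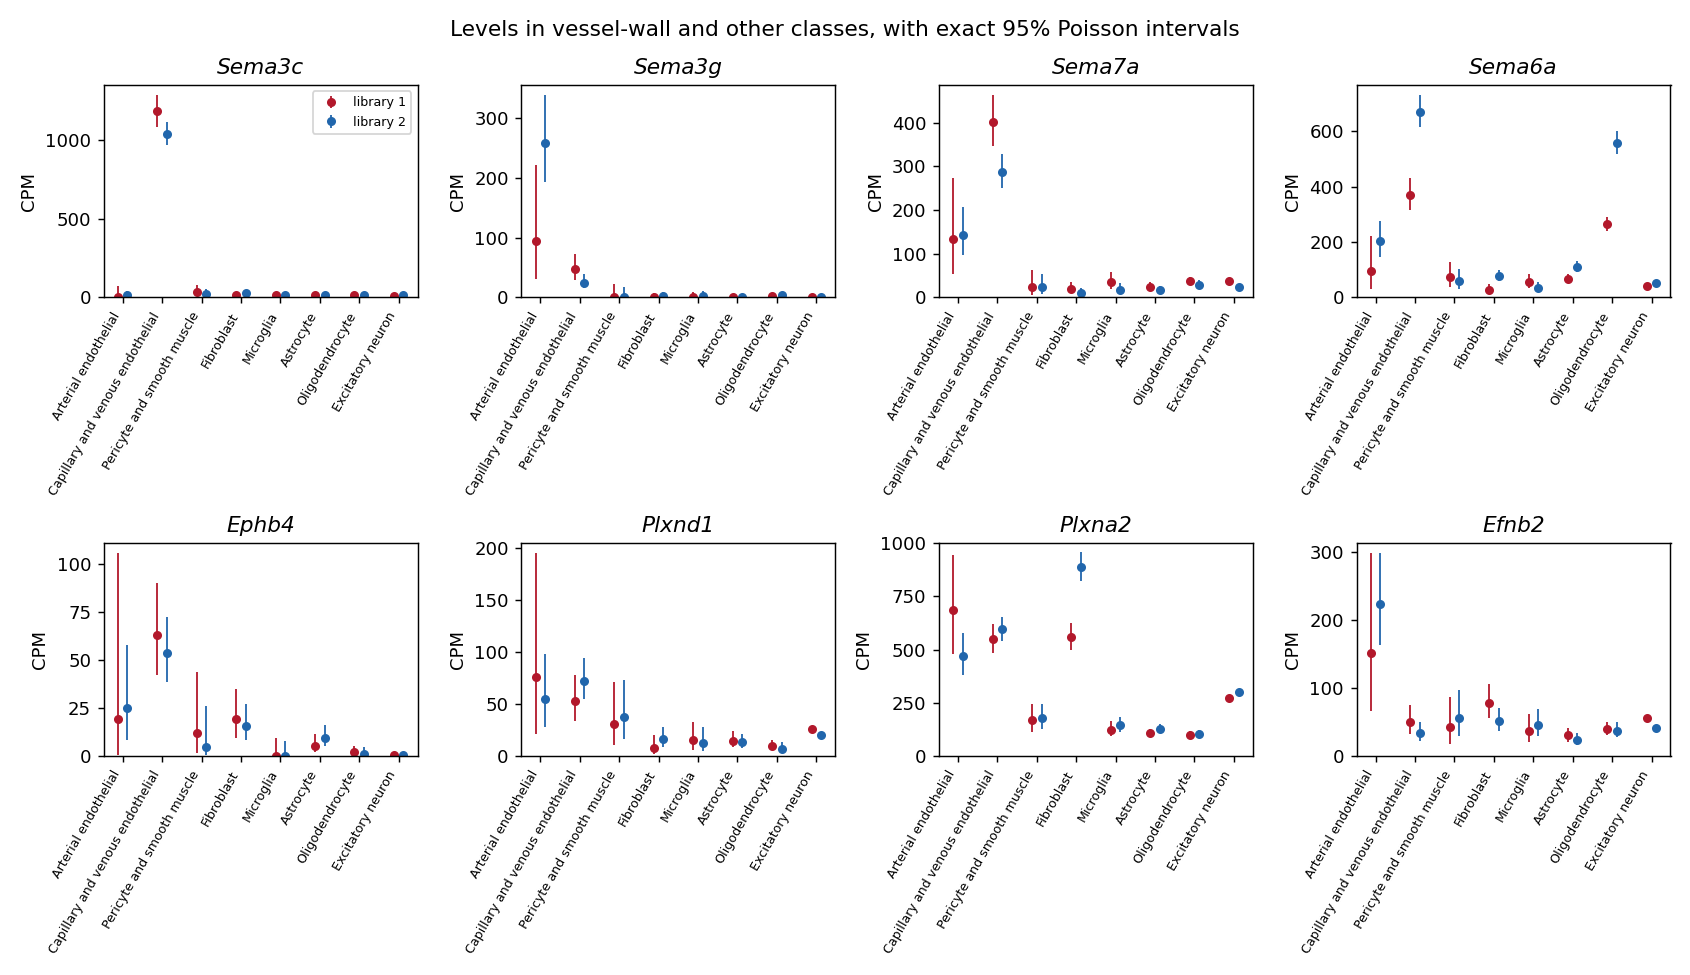
CPM of 8 members (panels) in arterial and in capillary and venous endothelium, the other vascular classes, glia and excitatory neurons, library 1 in red and library 2 in blue, with exact 95% Poisson intervals. Sema3c lies at 1184 and 1041 CPM in capillary and venous nuclei, whereas Efnb2 and Sema3g have higher points in arterial nuclei.

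Among the plexins, Plxnb3 marked oligodendrocytes. It measured 139 CPM (122 to 157) and 86.5 CPM (70.6 to 105) there, 73.7 and 23.4 CPM in oligodendrocyte precursors, and at most 2.42 CPM in any neuron class. After thinning, 16.3% and 11.4% of oligodendrocyte nuclei held a Plxnb3 UMI (21.9% and 21.1% before), against 1.16% and 0.498% of microglia, and the median depth of oligodendrocyte nuclei was 1877 and 2510 UMIs. Plxnb1, a receptor of Sema4d, was highest in astrocytes, at 96.4 CPM (79.5 to 116) and 43.4 CPM (32.8 to 56.3), against 24.2 CPM (6.60 to 62.01) and 37.1 CPM (16.03 to 73.1) in pericytes and smooth muscle. These intervals are apart in library 1 and overlap in library 2. Sema4d itself was highest in microglia of library 1 and in oligodendrocytes of library 2. Microglia had 140.2 and 124 CPM, oligodendrocytes 105 and 219 CPM and astrocytes 102 and 157 CPM, and the microglial level was inside the range of the neuron markers in library 2. Fibroblasts had 559 and 888 CPM of Plxna2, endothelium 563 and 569 CPM, and no neuron class more than 341 CPM. At a finer clustering (Leiden resolution 2) Plxna2 in fibroblasts was at 348 CPM in library 1 and 622 CPM in library 2. Plxnd1 was highest in endothelium, at 54.5 CPM (36.2 to 78.8) and 68.2 CPM (52.7 to 86.8), against 30.3 CPM (9.83 to 70.6) and 37.1 CPM (16.03 to 73.1) in pericytes and smooth muscle, with overlapping intervals in both libraries. The neuron subtype led by Ppfibp1, Igfn1 and Fam19a2 had 87.6 and 43.4 CPM of Plxnd1. Plxnb2 measured 44.3 CPM (26.2 to 69.95) and 76.7 CPM (54.03 to 106) in microglia, against at most 15.9 CPM in a neuron class, and was the member above the range of the neuron markers there.

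Plxna4, a receptor of Sema3a and Sema6a, measured 622 CPM (548 to 704) and 701 CPM (628 to 779.9) in microglia, against 579 and 678 CPM in excitatory and 607 and 710.4 CPM in inhibitory neurons. That level lies inside the range of the neuron markers in microglia and is not told apart from background. In astrocytes Plxna4 measured 146 and 161 CPM. Plxnc1 was highest in inhibitory neurons of library 1 and in fibroblasts of library 2. Inhibitory neurons had 102 and 91.5 CPM, against 66.8 and 97.1 CPM in fibroblasts, which is inside the range of the neuron markers.

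Ephrin ligands were divided among classes. Efnb3 was highest in oligodendrocytes, with 159 CPM (141 to 179) and 107 CPM (89.7 to 128), 3.75-fold and 3.70-fold above the next class. Efnb2 had no single class, with 80.7 and 58.1 CPM in striatal projection neurons and 60.3 and 73.4 CPM in endothelium, inside the range of the neuron markers in library 1. Within endothelium, arterial nuclei had 152 CPM (65.6 to 299) and 223 CPM (163 to 299) of Efnb2, from 8 and 45 UMIs, against 49.9 CPM (31.6 to 74.8) and 33.9 CPM (22.2 to 49.7) in capillary and venous nuclei. The intervals overlap in library 1 and are apart in library 2. Efna5 had 817 CPM (591 to 1100.2) and 1077 CPM (939 to 1230.3) in arterial nuclei, against 145 CPM (113 to 185) and 120.0 CPM (96.8 to 147) in capillary and venous nuclei, and these intervals are apart in both libraries. Over whole classes Efna5 was at 427 and 413 CPM in excitatory neurons, against 345 and 423 CPM in fibroblasts, which is inside the range of the neuron markers. Efnb1 measured 19.1 and 23.3 CPM in fibroblasts, and in endothelium it had 13 and 3 UMIs. The other named ephrin-A ligands rested on few UMIs, with 6 and 15 for Efna1 in endothelium, 6 and 3 for Efna2 in oligodendrocyte precursors and 18 and 7 for Efna3 in microglia. The Efna3 level there was above the range of the neuron markers in library 1 and inside it in library 2.

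EphA receptors were mostly highest in neurons. Epha6 measured 1448 and 1782 CPM in excitatory neurons, against 1347 and 1461 CPM in inhibitory and 1218 and 1287 CPM in striatal projection neurons. Epha5 was at 613 and 768 CPM in excitatory neurons, against 581 and 633 CPM in oligodendrocyte precursors, and Epha7 was at 297 and 295 CPM in excitatory neurons. Epha4 had overlapping intervals in striatal projection neurons, at 369.8 and 371 CPM, and in excitatory neurons, at 370.4 and 361 CPM, against 125 and 125 CPM in inhibitory neurons. Endothelium had 346 and 379 CPM of Epha4, its highest class in library 2. These levels lie inside the range of the neuron markers and are not told apart from background. The Epha5 level in precursors also lies inside that range.

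Among EphB receptors, Ephb2 was highest in excitatory neurons, at 75.3 and 101 CPM. For Ephb1, striatal projection neurons had 433 and 596 CPM, oligodendrocytes 324 and 659 CPM and astrocytes 254 and 497 CPM, so its highest class was striatal in library 1 and oligodendrocytes in library 2. The glial levels of Ephb1 were not above the range of the neuron markers in both libraries and are not told apart from background. Ephb4, the venous receptor of ephrin-B2, measured 58.4 CPM (39.4 to 83.4) and 47.5 CPM (34.8 to 63.4) in endothelium and at most 0.605 CPM in a neuron class. Its level was 62.9 and 53.5 CPM in capillary and venous nuclei and 19.00 and 24.8 CPM in arterial nuclei (1 and 5 UMIs), with overlapping intervals. Ephb6 ranged over the 10 classes from 11.4 to 34.4 CPM in library 1 and from 14.5 to 32.5 CPM in library 2, and no class outside neurons was above that range in both libraries.

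Neurons were clustered again without the members, and 25 subtypes had at least 50 nuclei in each library. In 35 of the 54 members (64.8%) the highest subtype stood at least 2-fold above the median subtype in both libraries, with 1 CPM added, beside 41.0% of all genes. Sema3c was at 147 and 129 CPM in Lamp5 and at 130.3 and 201 CPM in Vip interneurons, against a median subtype level of 4.36 and 7.02 CPM. Sema5a was at 684 and 595 CPM in Lamp5 interneurons and at 622 and 792 CPM in dentate granule neurons, against a median of 26.6 and 39.2 CPM. Sema5b was highest in claustrum neurons, at 320.2 and 273 CPM, and stood at 252 and 221 CPM in near-projecting and at 162 and 258 CPM in layer 6b neurons, against a median of 12.3 and 14.5 CPM. Sema6d was highest in Sst interneurons, at 829.7 and 1074 CPM, against a median of 254 and 482 CPM. Sema3e was at 243 and 266 CPM in CA1 and 226 and 308 CPM in Drd2 striatal neurons, at 165 and 159.8 CPM in layer 6 corticothalamic neurons and at 25.6 and 27.6 CPM in layer 4 neurons.

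Several receptors peaked in hippocampal or striatal subtypes. Epha6 was highest in CA1 neurons, at 4318 and 5905 CPM, against a median of 1362 and 1432 CPM, and lowest in claustrum neurons, at 154 and 132 CPM. Epha7 was highest in dentate granule neurons, at 882 and 906 CPM, as was Plxna4, at 1349 and 1949 CPM. Ephb1 was highest in Drd1 striatal neurons, at 528 CPM (489 to 568) and 770.3 CPM (709 to 836), against 351 CPM (313 to 391) and 454 CPM (403 to 511) in Drd2 striatal neurons, and these intervals are apart in both libraries. In the cortex, layer 6 corticothalamic neurons had 415 and 540.3 CPM of Ephb1 and 509 and 554 CPM of Plxna2. The ligand Efna5 was highest in layer 4 neurons, at 888 and 844 CPM, and lowest in dentate granule neurons, at 82.5 and 69.9 CPM.

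**Figure D3:**
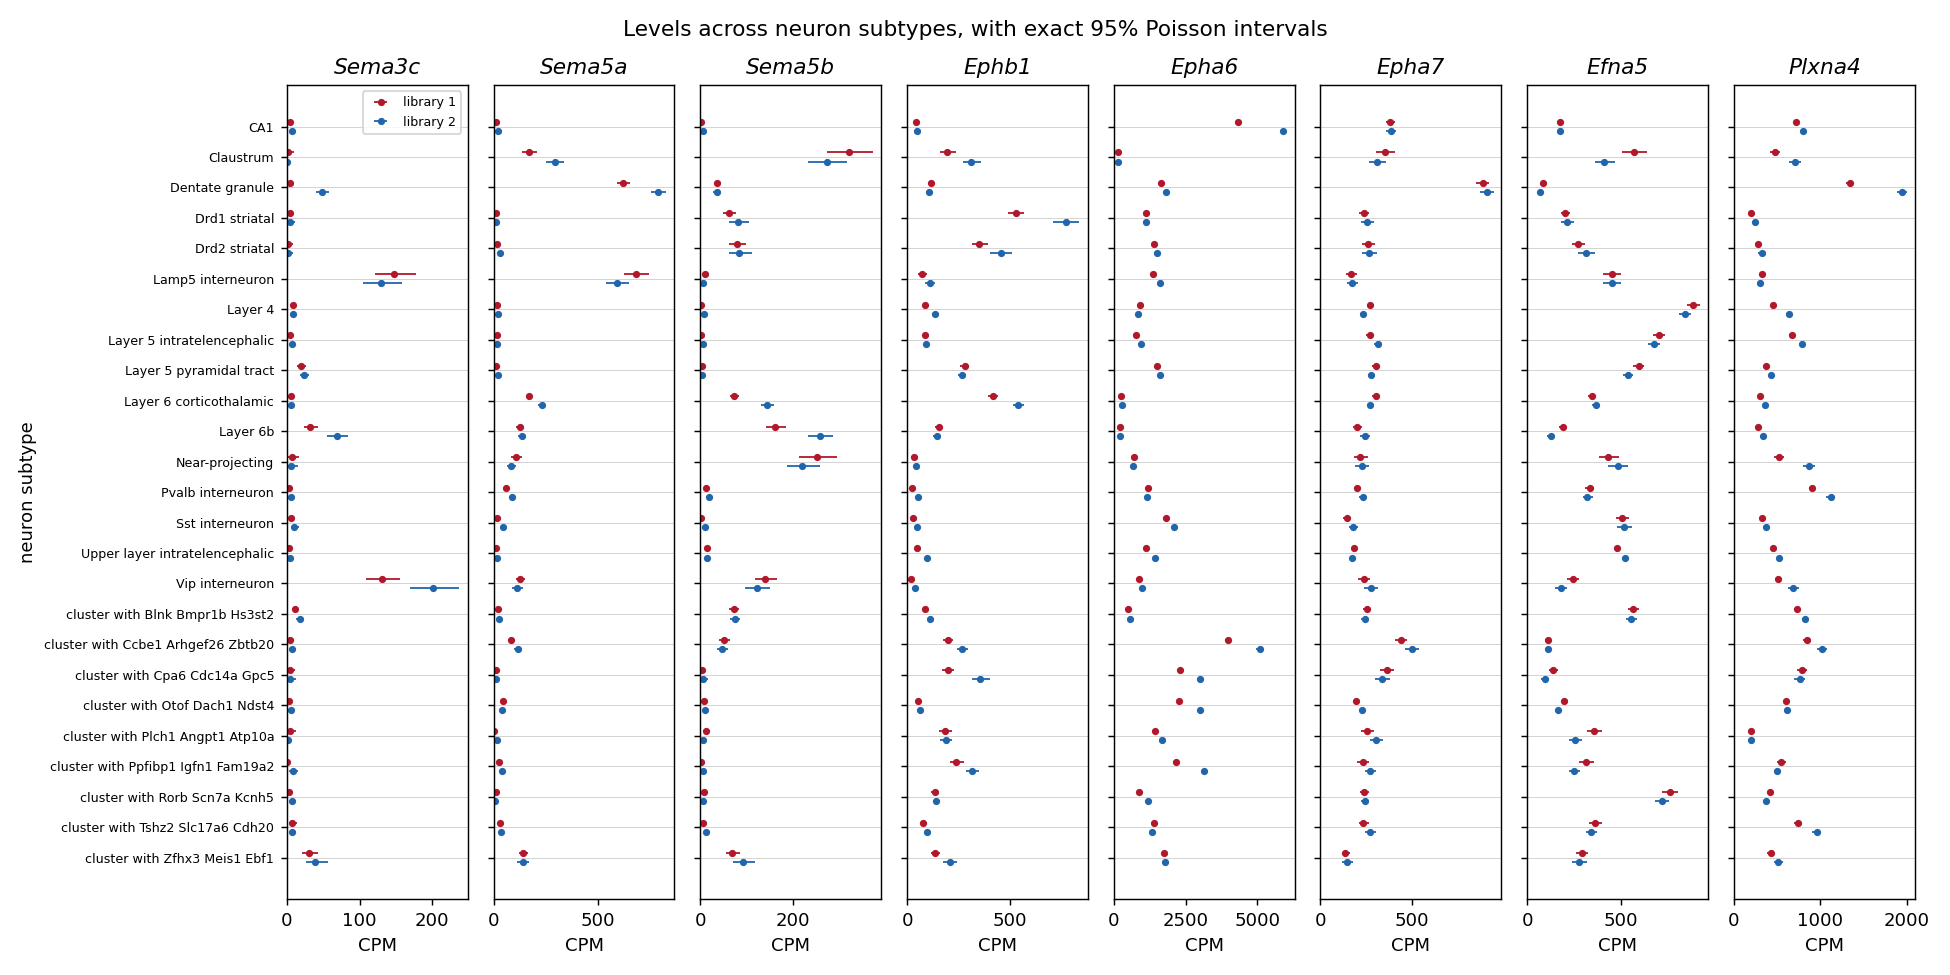
CPM of 8 members (panels) in 25 neuron subtypes (rows; subtypes that no marker list named are called by leading genes), library 1 in red and library 2 in blue, with exact 95% Poisson intervals. Epha6 peaks in CA1 neurons, Epha7 and Plxna4 in dentate granule neurons, Ephb1 in Drd1 striatal neurons and Efna5 in layer 4 neurons in both libraries.

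Among 36 genes that act beside these families (neuropilins, coreceptors, collapsin response mediators and adaptors among them), 27 had the same highest class in both libraries, beside 43.2% of all genes. They were highest in a neuron class in both libraries in 7 cases (10.7% of all genes), in a glial class in 9 (25.9%) and in a vascular class in 14 (26.9%). The range of the neuron markers is not applied to the levels and counts of these genes. Nrp2, a neuropilin, was highest in endothelium, at 111 and 130.2 CPM, and Nrp1 was highest in fibroblasts of library 1, at 343 CPM, and in endothelium of library 2, at 422 CPM. In library 1 endothelium had 189 CPM of Nrp1, against 208 CPM in excitatory neurons. The neuron subtype led by Ccbe1, Arhgef26 and Zbtb20 had 751 and 788 CPM of Nrp1. Kdr, the endothelial VEGF receptor, was at 113 and 205 CPM in endothelium. Grip1, a scaffold that binds ephrin-B ligands, measured 4864 and 4728 CPM in inhibitory neurons, and Farp1, which binds plexins, 1945 and 1391 CPM in astrocytes. Ngef, the exchange factor ephexin that Epha4 activates, was highest in striatal projection neurons, at 246 and 189 CPM.

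Between the libraries, 12 of 51 members measured in excitatory neurons differed by at least 2-fold (23.5%, beside 17.5% of all genes). There is no replicate check for this difference. Higher in library 1 were 6 members (11.8%, beside 6.85% of all genes). Sema4a had 51.2 and 23.5 CPM, Sema4b 18.3 and 8.64 CPM and Plxna3 10.4 and 3.60 CPM. Sema6c had 9.74 and 4.85 CPM, Sema3f 4.66 and 2.21 CPM and Efna1 2.07 and 0.720 CPM. Higher in library 2 were 6 (11.8%, beside 10.6% of all genes), namely the 3 antisense transcripts, Epha1 with 8 and 23 UMIs, Ephb4 with 6 and 16 and Sema3g with 11 and 26. Ephb4 and Sema3g were highest in endothelium, and the 8 endothelial markers summed to 23.2 and 63.9 CPM in excitatory neurons. The part of such counts in the ratios of Ephb4 and Sema3g was not tested. Across neuron subtypes Sema4a was higher in library 1 in 25 of 25 and Plxna3 in 17 of the 17 with at least 20 UMIs, whereas Sema6d was higher in library 2 in 24 of 25 and Epha5 in 25 of 25.

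Gene length moved with these ratios. Of the 48 coding members measured, 28 are under 100 kb (the longest 46.3 kb), and 25 of these were higher in library 1, with a median log2 ratio of library 1 to library 2 of 0.65. Of the 20 of 100 kb or longer (the shortest 108 kb), 4 were higher in library 1, and the median was -0.25. Over all genes the medians were 0.27 for 14812 genes under 100 kb and -0.01 for 2664 longer genes, and the median of all genes was 0.21. Spearman's rank correlation between length and log2 ratio was -0.62 over the 48 coding members and -0.18 over 17476 genes, values across genes of the same nuclei that are given as a description. The split at 100 kb was chosen after the values were seen, and the part of gene length in the ratios was not tested.

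**Figure D4:**
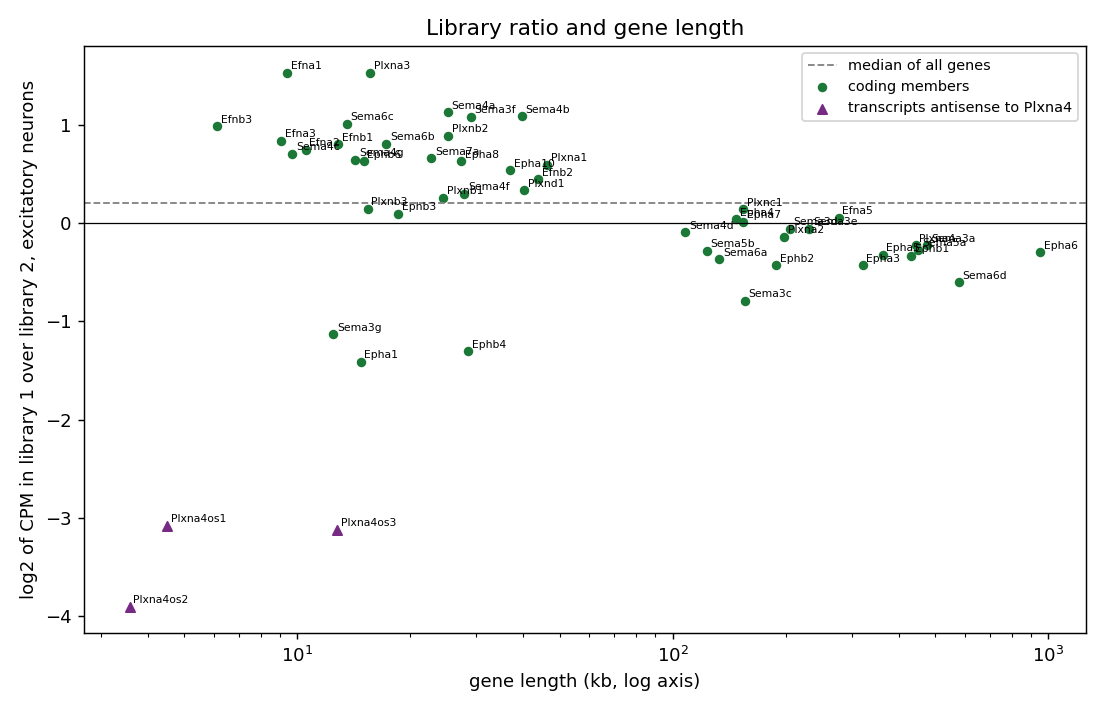
Log2 ratio of CPM in library 1 to library 2 in excitatory neurons (vertical axis) against gene length in kb (log axis) for the members with at least 20 UMIs. Most coding members under 100 kb lie above 0 and most longer ones below it, and the 3 antisense transcripts lie below -3. The dashed line is the median of all genes, 0.21.

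The 3 transcripts antisense to Plxna4 lie wholly inside that gene on chromosome 6 (build mm10, GENCODE vM21), on the plus strand where Plxna4 is on the minus strand. Plxna4os3 spans 32303829 to 32316614, Plxna4os2 spans 32451170 to 32454750 and Plxna4os1 spans 32511073 to 32515576. The sources used here do not say whether counting used strand, so reads of these genes and of Plxna4 may not be separable. In excitatory neurons Plxna4os3 had 126 and 1184 UMIs, or 3.26 and 28.4 CPM, while Plxna4 had 579 and 678 CPM. It was higher in library 2 in 19 of the 19 neuron subtypes with at least 20 UMIs, and its highest subtype was dentate granule neurons in both libraries, at 7.86 and 74.2 CPM, as for Plxna4. Plxna4os2 had 8 and 129 UMIs and Plxna4os1 7 and 64. Antisense genes as a type were lower in library 1. Their median log2 ratio in excitatory neurons was -1.07 over 1419 genes, 51.5% were at least 2-fold higher in library 2, against 5.26% of protein-coding genes, and 140 had a lower ratio than Plxna4os3. The part of this shift in the ratios of the 3 transcripts was not tested.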

How the data were processed

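The deposited file is 1 matrix of raw UMI counts for both samples, written by Cell Ranger 3.1.0 per the file headers. Per the submitters' processing notes the tools were Cell Ranger 2.0.1, Seurat 3.1 and R 4.0.2 with the build mm10, and the conflict of versions was not settled. The sources used here do not give the intron handling, use of strand or annotation. The totals were 58108297 UMIs in library 1 and 60547146 in library 2.

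Barcodes needed at least 200 genes and no more than 5% mitochondrial UMIs. Scrublet's automatic threshold marked 0 and 2 barcodes and had not worked, so barcodes with a score of 0.2 or more were left out (305 and 332). Clustering in scanpy 1.11.5 used 2000 variable genes without members and pathway genes, values scaled within each library, 30 components, 15 neighbours and Leiden resolution 1. Classes were named from fixed marker lists. The naming thresholds, the scaling within libraries, the further splits of clusters, the doublet limit and the range of neuron markers outside neurons were set after the data were seen. Unnamed nuclei numbered 602 and 785.

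UMIs were summed per class and library and scaled to CPM, with exact 95% Poisson intervals, and nuclei were thinned to 1500 UMIs for shares. With 1 sample there is no test. The 29 named genes are the 4 members per family with the highest level in any class, plus members at least 4-fold above the next class in both libraries; other members named were chosen after their values were seen. Members and lists were chosen with earlier results of these data known. Positions are from GENCODE vM21 and promoter windows of 250 bases from RefSeq, matched by symbol for 45 members. Only the step that finds the highest class was tested on simulated counts, with genes raised in endothelium. Clustering, class naming, neuron subtypes and the range of the neuron markers were not part of that simulation.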

Additional observations from a re-analysis of the deposited data

How the results depend on the processing

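All 6 counts of members (the same highest class, a neuron, glial or vascular class, neuron subtypes, libraries) stayed within 1.5 times under 7 alternatives: no doublets left out, a mitochondrial limit of 1%, equal weight per nucleus, thinning to 1500 UMIs, a minimum of 100 UMIs, members allowed among variable genes and Leiden resolution 2. The count with the same highest class ran from 31 to 39, and that of members 2-fold apart between libraries from 8 to 14. Of 58 levels of named genes, those outside the interval reported numbered 5, 12, 17, 0 and 3 without doublet removal, with equal weight, after thinning, with members among variable genes and at resolution 2. At resolution 2, Plxna2 in fibroblasts of library 1 was 348 CPM. Under the 1% limit with new clustering, 7 classes were left and 18 of 46 levels moved: Sema3c in endothelium was 234 and 170 CPM and Sema7a 105 and 51.9 CPM, but of the 124 nuclei in that cluster only 44 had been endothelial and 74 had been fibroblasts. Within the classes reported, a setting added after seeing the data, the 1% limit moved 24 of 58 levels and left 19 and 25 of the 435 endothelial nuclei, with Sema3c at 698 and 488 CPM and Sema7a at 238 and 119 CPM. Depth limits members with few UMIs, such as Efna4, Epha2 and Epha1, and arterial nuclei of library 1. No paired analysis was possible because no label ties a library to an age and each age has 1 pooled sample.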

Other observations

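Newly formed oligodendrocytes, with 12 nuclei in library 1 and 45 in library 2, were too few for the comparisons, and 9 nuclei of each library in this class formed a group of high depth whose leading genes included the interneuron gene Vip. In the class as a whole, Sema5a measured 315 CPM (224 to 430.3) and 1657 CPM (1500.3 to 1825), Sema4d 88.8 CPM (44.3 to 159) and 955 CPM (838 to 1085) and Ephb1 161 CPM (98.6 to 249) and 1072 CPM (947 to 1209). In oligodendrocytes these genes had 56.2 and 144 CPM, 105 and 219 CPM and 324 and 659 CPM in that order, and in precursors 310.0 and 424 CPM, 30.3 and 50.5 CPM and 43.4 and 112 CPM. The makeup of the class differs between the libraries, so its values in library 1 and library 2 are not comparable.

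Ependymal nuclei (16 and 29) had 140.5 and 68.7 CPM of Plxnb2 and 499 and 572 CPM of Sema6d. Choroid plexus nuclei (23 and 13) had 89.7 and 68.1 CPM of Plxnb2 and 368 and 626 CPM of Sema6d. Sema3b had 9 and 0 UMIs in choroid plexus nuclei, and the 0 in library 2 allows up to 50.2 CPM by the exact 95% interval.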
